A study of Mus musculus with 400 samples.

Results

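The cytosolic ribosomal protein genes were examined in single cells sorted as Lgr5-high from the mouse small intestine. Members were the rows of the count table whose gene symbol names a ribosomal protein of the large subunit (Rpl, Rplp) or the small subunit (Rps, Rpsa) by a fixed symbol pattern. The pattern found 87 of 33496 rows, of which 52 belong to the large and 35 to the small subunit. Of these, 83 are annotated as protein-coding genes and 4 (Rpl6l, Rps3a2, Rps3a3 and Rps4l) as processed pseudogenes. The pattern misses some genes, among them Fau and Rpl36al, which also encode ribosomal proteins, and Rack1, a signalling scaffold bound to the small subunit. These 3 genes are given beside the members and were not counted among them. The mice carried 1 Lgr5 allele with a knock-in of EGFP and a tamoxifen-inducible Cre recombinase (genotype Lgr5 GFP/+), so that green fluorescence follows the Lgr5 promoter. Cells came from crypts of the duodenum and jejunum, and the labels give neither the number nor the age of the mice for any cell. The knock-in reporter is known to be active in only a part of the crypts, and every sorted cell carries it. The 400 cells form 1 group, in 10 library sets that each use the same 40 barcode numbers, and 380 cells with at least 10000 counts were kept.

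The ribosome reads messenger RNA and joins amino acids into protein, and each cytosolic ribosome contains 1 copy of most of these proteins. The small subunit holds the messenger RNA and the decoding site, and the large subunit holds the peptidyl transferase centre and the tunnel through which the new chain leaves. Most of these messenger RNAs begin with a pyrimidine tract, the 5′ terminal oligopyrimidine (TOP) motif, which couples their translation to growth signals. Dividing crypt stem cells renew the whole intestinal lining and make ribosomes for it.

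No animal is named for any cell, so the group counts as 1 sample, and no p-value was computed. The standard deviation (SD) given with a value is over the 10 library sets. As the labels do not tie sets to mice, this spread may be technical only. Total counts of the kept cells ran from 10766 to 70133, with a median of 32112. No pair of cells had identical columns. The stem cell markers Lgr5, Olfm4, Ascl2, Smoc2 and Axin2 each had a count in at least 91.1% of cells. The Paneth cell marker Defa24 had a count in 100% of cells, at a mean of 18.5, and Lyz1 in 95.5%, at a mean of 7.07. Of the other Paneth markers listed, Ang4 had a count in 50% of cells and Mmp7 in 39.7%, at means of 1.88 and 1.23. The part of Paneth cell RNA in the values below was not tested.

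Members took a median of 3.43% of the counts of a cell (SD 0.126, n = 10 library sets). The lowest cell had 1.55% and the highest 5.61%. Over library sets the median share ran from 3.31% to 3.68%. In the 20 cells left out for depth the median share was 4.34%. The share was lower in deeper cells: in 4 equal bands of cells, ordered from the shallowest to the deepest by the counts of all other genes, it was 3.92%, 3.66%, 3.44% and 3.15%. Those other genes also make up most of the total in the share, so the order and the share are not independent. The part of this in the trend was not tested. Adding Fau, Rpl36al and Rack1 to the members gave a median share of 3.54%. The 78 mitochondrial ribosomal protein genes, which build the separate ribosome of the mitochondrion, took a median of 1.03%.

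Of the 87 members, 84 had a mean of at least 1 count per cell, 51 a mean of at least 10 and 12 a mean of at least 20. A count in every kept cell was found for 41 members. Of all 33473 genes with any count, members included, 8491 had a mean of at least 1 and 27 a mean of at least 20. A count in every kept cell was found for 260 of them. Among the 20 genes with the highest mean counts in the table, 7 were members. The 3 members below a mean of 1 were Rpl3l, Rpl10l and Rpl39l, which are paralogs described further down. The plot of member levels shows this order and the narrow spread between library sets.

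**Figure D1:**
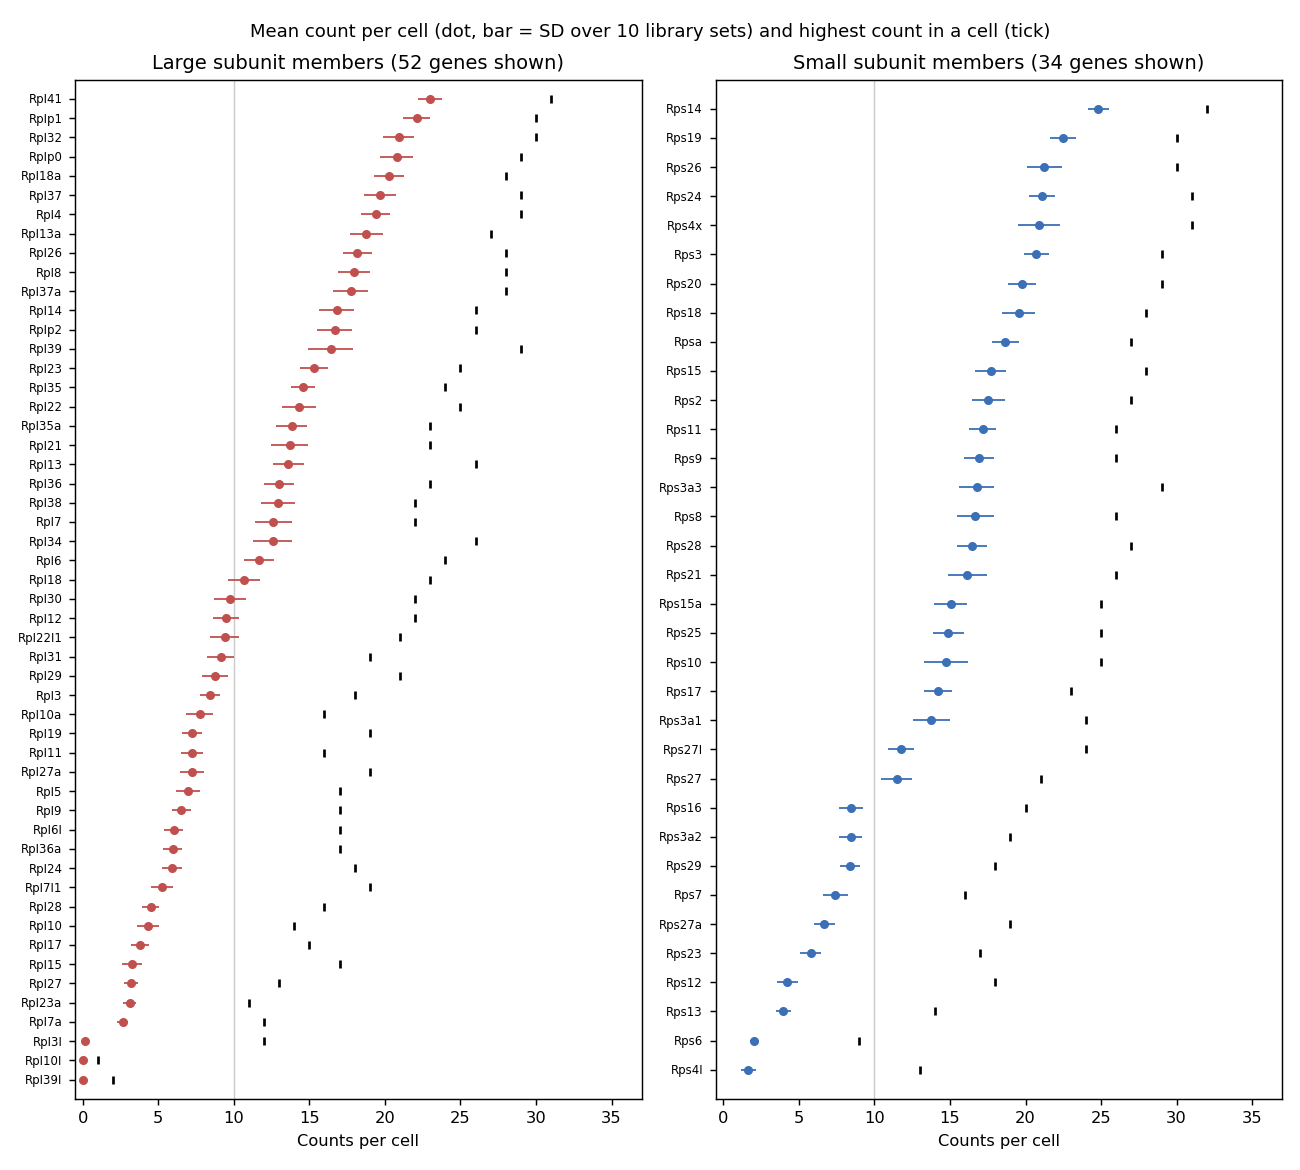
Mean counts per cell of the 52 large subunit members (left) and of 34 of the 35 small subunit members (right) over 380 cells, as dots with bars for the SD over 10 library sets. Black ticks mark the highest count in a single cell. Means run up to 24.8 counts (Rps14), and no tick lies above 32 counts.

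Large subunit members averaged 11.7 counts and small subunit members 14.2 counts, over the 49 and 35 members with a mean of at least 1. The ratio of large to small was 0.823 (SD 0.00883, n = 10 library sets), and it ran from 0.813 to 0.840 between sets. The large subunit was thus the lower in each of the 10 library sets. Per kilobase of merged exon length, large subunit members averaged 8.16 counts and small subunit members 9.06 counts. A mean of at least 10 counts was reached by 26 of the 52 large subunit genes and by 25 of the 35 small subunit genes. Summed over genes the order is the other way, since the large subunit has more members: they took a median of 1.84% of the counts of a cell, against 1.59% for the small subunit.

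Orders are given both by counts per cell and by counts per kilobase of exon. Across 80 protein-coding members the mean count and the exon length had a Spearman correlation of -0.01. The order per kilobase depends on both counts and lengths, and both orders are descriptions. In the large subunit the highest mean counts were those of Rpl41, Rplp1 and Rpl32. Rpl41, which encodes the shortest ribosomal protein, had library set means of 24.2 counts at the highest, with a median of 22.8, and single cells ran from 10 to 31 counts. Rplp1, an acidic protein of the stalk that recruits elongation factors, had set means from 21.2 to 23.7 counts, with a median of 21.8. Rpl32 averaged 20.9 ± 1.00 counts (SD, n = 10 library sets). The ranges of these 3 members overlap between library sets. Per kilobase Rplp1 was highest, at 44.3 ± 1.79 counts, followed by Rpl36 at 33.9 ± 2.58 and Rpl38 at 23.9 ± 2.08.

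The lowest large subunit members with a mean of at least 1 were Rpl7a, at 2.67 ± 0.364 counts, Rpl23a, at 3.11 ± 0.415, and Rpl27, at 3.19 ± 0.454. These 3 proteins are part of every large subunit. Some cells had no count of them: 77.1% of cells had a count of Rpl7a, 82.6% of Rpl23a and 83.9% of Rpl27. Per kilobase Rpl15 was lowest, at 1.32 ± 0.268 counts, and Rpl7a next, at 1.5 ± 0.205, and their spreads overlap.

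In the small subunit Rps14, Rps19 and Rps26 had the highest mean counts. Rps14, on chromosome 18, had set means from 23.8 to 25.9 counts with a median of 24.7, and single cells ran from 14 to 32 counts. Rps19, the gene most often mutated in Diamond-Blackfan anaemia, averaged 22.5 ± 0.863 counts, and its highest library set, at 23.7 counts, lay just under the lowest set of Rps14. Rps26 averaged 21.2 ± 1.15 counts, and its highest set overlapped the lowest of Rps14. Per kilobase Rps15, at the decoding site, was highest, at 28.1 ± 1.63 counts, and Rps14 had 10.4 ± 0.296.

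At the other end, Rps4l averaged 1.65 ± 0.492 counts, Rps6 2.06 ± 0.316 and Rps13 3.98 ± 0.507. Rps6, the small subunit protein that growth signals phosphorylate through S6 kinase, had set means from 1.38 to 2.46 counts, with a median of 2.08. It had a count in 72.4% of cells and never more than 9. Per kilobase it was the lowest of all 84 members with a mean of at least 1, at 1.30 ± 0.199 counts, although Rpl15 overlapped it. Rps13 was next in the small subunit, at 1.48 ± 0.189 counts per kilobase.

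By role, values are given per kilobase, where the median of the 84 members with a mean of at least 1 was 6.13 counts. The P stalk spread most widely: Rplp1, Rplp0 and Rplp2 had 44.3, 12.5 and 8.05 counts per kilobase, and Rpl12, which joins the stalk base, 2.64. Rpl5 and Rpl11, which travel with 5S RNA and bind Mdm2 when ribosome assembly fails, had 1.78 and 2.69. Not divided by length, this pair had 6.98 ± 0.803 and 7.25 ± 0.742 counts, with overlapping spreads.

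At the rim of the exit tunnel, Rpl38 had 23.9 counts per kilobase, Rpl26, Rpl35 and Rpl39 between 11.4 and 12.6, and Rpl19, Rpl31 and Rpl22 between 4.92 and 7.10. Rpl23a, which docks the signal recognition particle, had 3.68 counts per kilobase and Rpl17 2.87. Rpl4, whose loop lines the tunnel wall, had 9.66. Near the peptidyl transferase centre Rpl8 had 13.2 counts per kilobase, Rpl3 2.66 and Rpl10 2.10. Genes whose proteins sit side by side in the large subunit thus did not have like counts per kilobase. These values depend on merged exon length as well as on counts, and some members have sequence copies with counts, described further down. Of the summed counts of a member and its copies, the Rpl8 row held 98.7%, Rpl10 58.8% and Rpl3 31.1%. The part of exon length and of copies in these differences was not tested.

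In the small subunit, Rps2 and Rps3, at the entry of the messenger RNA, had 9.58 and 4.62 counts per kilobase. At the decoding site Rps15 had 28.1 and Rps23 4.56. In the head and beak Rps29 had 12.1 counts per kilobase, Rps10 6.38, Rps20 4.85, Rps19 4.79 and Rps12 2.09. Rps27a, made as a fusion with ubiquitin, had 3.39. Outside the pattern, Fau had 8.54 counts per kilobase, Rpl36al 6.59 and Rack1 3.85. These 3 lay within the range of the members.

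The counts of abundant members flattened below about 30. The highest count of any member in any cell was 32, and that of any gene 36. Of the 33060 member values, 21.5% were at least 20 and 4.31% at least 25, but 30 values, or 0.0907%, reached 30. These 30 values lay in 26 cells and 8 members. From the shallowest to the deepest of the 4 bands of cells, 0.532%, 2.11%, 4.73% and 9.86% of member values were at least 25. Within a cell, the highest member had between 14 and 32 counts, with a median of 26. The highest gene of a cell had between 26 and 36 counts, with a median of 31, and the genes with the highest means were the mitochondrial ribosomal RNAs. mt-Rnr2 averaged 30.4 ± 0.264 counts and mt-Rnr1 29.8 ± 0.382.

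The spread between cells narrowed as the mean rose. Counting error alone gives a variance equal to the mean, and a ratio of variance to mean below 1 is a spread narrower than that. For Rps14 the ratio was 0.436, the lowest of the members, followed by Rplp1 at 0.634 and Rps19 at 0.654. Among members with a mean of at least 1 the highest ratios were those of Rps4l at 3.68, Rpl15 at 2.82 and Rpl17 at 2.70. A ratio below 1 was found for 19 of the 84 members with a mean of at least 1, where 0.612% of all genes with such a mean had one. Among genes with a mean of at least 10, it was found for 19 of 51 members and for 15.2% of all genes. Members were concentrated at high means, so like means were compared. Between means of 20 and 25 counts the median ratio was 0.696 in 12 members and 0.624 in 8 other genes. Between 15 and 20 counts it was 1.18 in 22 members and 1.07 in 61 other genes, and between 10 and 15 counts 1.77 in 17 members and 1.78 in other genes. Between 5 and 10 counts both groups had a median of 2.34. Between 1 and 5 counts it was 2.19 in 11 members and 2.90 in 7181 other genes. The median ratio of the 51 members with a mean of at least 10 was 1.29 (SD 0.387, n = 10 library sets). Over the members that reached a mean of 10 in cells with at least 20000 counts it was 0.922. In cells thinned to 19169 counts it was also 0.922, over the fewer members that still reached a mean of 10. These medians are not over the same members, and the part of depth in the change was not tested. Above 5 counts, members thus lay close to other genes of like mean, and the cause of the narrowing was not tested. The plot of spread against mean shows that curve.

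**Figure D2:**
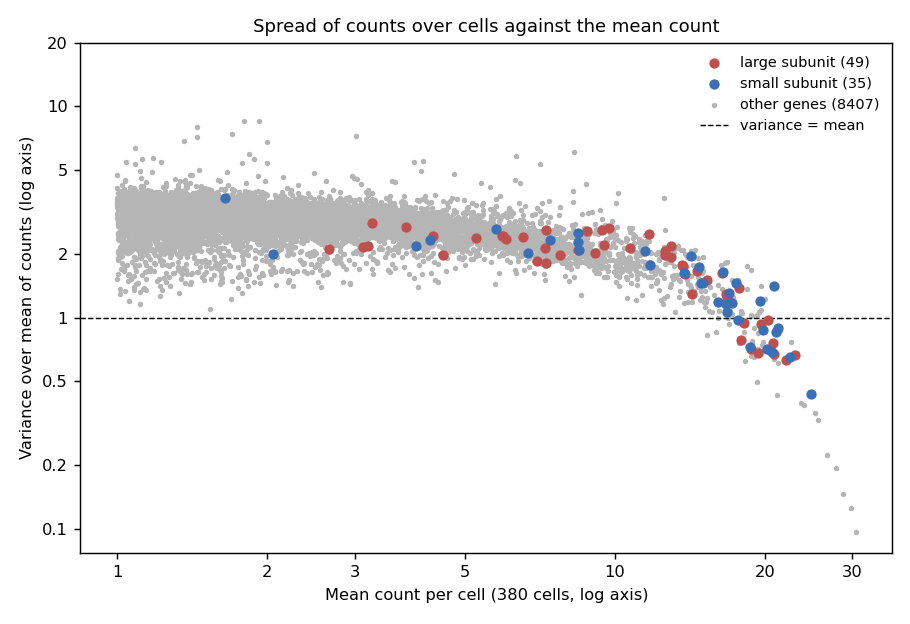
Variance over mean of the counts of each gene over 380 cells against its mean count, both on log axes. Red points are the 49 large subunit members and blue points the 35 small subunit members with a mean of at least 1, and grey points are all other genes with such a mean. The dashed line is a variance equal to the mean, and 19 members lie below it, with Rps14 lowest among them at 0.436.

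Depth moved abundant members little and scarce members much. Mean totals were 44173 counts in the deepest band of 95 cells, against 19754 in the shallowest, a ratio of 2.24. The summed counts of all members had a ratio of 1.76 between the same bands. The median ratio of the 51 members with a mean of at least 10 was 1.61 (SD 0.206, n = 10 library sets). Rps14 averaged 27.2 counts in the deepest band and 21.7 in the shallowest, a ratio of 1.25 and the lowest of the members. Rplp1 had 24.6 against 18.6 counts, a ratio of 1.32, and Rpl41 25.7 against 19.3, a ratio of 1.33. A ratio below 2 was found for 42 of 84 members with a mean of at least 1, where 22.2% of all such genes had one. Above a mean of 10 it was 42 of 51 members, where 74.2% of all genes had one.

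At the other end of the scale, Rps6 averaged 3.21 counts in the deepest band and 0.705 in the shallowest, a ratio of 4.55. Rpl23a followed with 4.98 against 1.12 counts, a ratio of 4.46, and Rpl17 with 6.00 against 1.48, a ratio of 4.04. None of the 33 members with a mean between 1 and 10 counts had a ratio below 2. Between means of 1 and 5 counts the median ratio was 3.44 in 11 members, against 2.48 in 7181 other genes. Between 5 and 10 counts it was 2.67 in 22 members, against 2.25 in 936 other genes. Members with a mean of 1 to 10 counts thus had higher ratios than the totals, except Rpl10a at 2.21, Rpl31 at 2.22 and Rpl27a at 2.23. Some scarce genes outside the members did the same. Hnrnpa1, itself a TOP mRNA, had 3.56 counts and a ratio of 4.87, Ppia 2.20 counts and a ratio of 3.87, and Gapdh 0.384 counts and a ratio of 5.38. Across 80 protein-coding members with a mean of at least 1, the ratio and the mean count had a Spearman correlation of -0.97. This is a description across genes that share the same cells, and a low mean and a high ratio use the same counts.

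**Figure D3:**
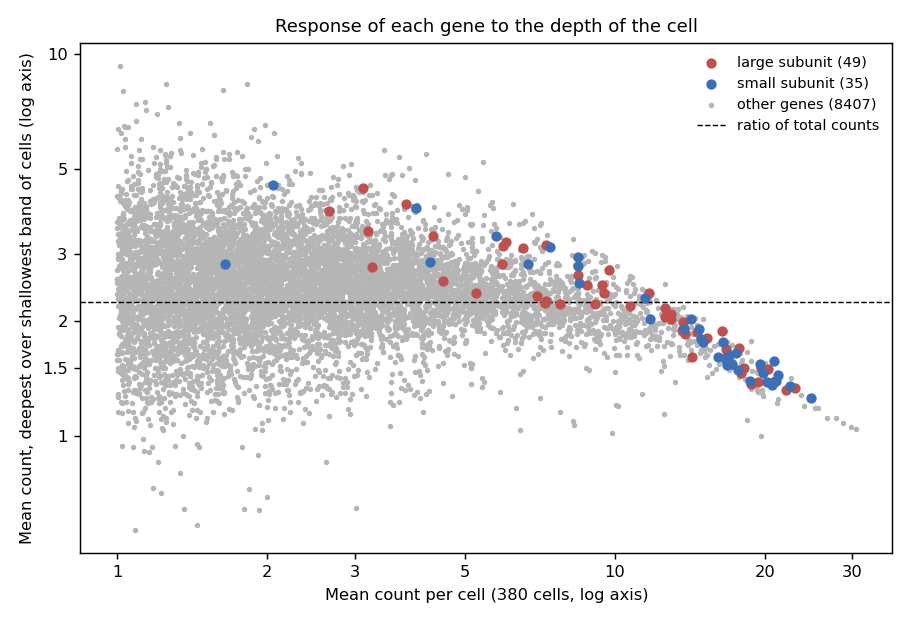
Mean count in the deepest band of 95 cells over that in the shallowest, for each gene, against its mean count over 380 cells; both axes are log. Red points are 49 large subunit members, blue points 35 small subunit members and grey points other genes with a mean of at least 1. The dashed line is the ratio of the total counts, 2.24. Members with a mean under 10 counts lie above it, except Rpl10a, Rpl31 and Rpl27a just below, and members with a mean above 15 counts lie below it.

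Many scarce members shared sequence with another row of the table that had more counts. Ribosomal protein messenger RNAs have been copied back into mammalian genomes many times, which leaves intronless processed pseudogenes. A copy was defined here as another row of the table whose annotated transcripts share at least 50 stretches of 31 bases with the protein-coding transcripts of a member, and at least 10% of their own stretches. Of the 83 protein-coding members, 78 had a copy and 5 had none. The 678 copies included 665 annotated processed pseudogenes, and a member had a median of 5 copies. Rpl7a had the most, with 59, followed by Rpl21 with 58 and Rps2 with 51. In the table, 37.5% of copies had a mean of at least 1 count, and 50 copies a mean of at least 10. A mean of at least 5 counts was reached by 11.8% of copies and by 1.06% of the other 4154 processed pseudogenes. The 87 members summed to a mean of 1071 counts per cell, and the 675 copies that are not members themselves to 1441 counts.

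The next sequences show how alike some of these rows are. Each is 60 bases of a processed pseudogene that is found letter for letter in the spliced messenger RNA of its member. They are in sense orientation, from GENCODE M21 transcripts on GRCm38, and the capitals mark the last base of 1 exon and the first base of the next exon of the member, where the pseudogene has no intron. Rps6-ps4 lies at chr2:75191655-75191714 (minus strand), Gm15500, a copy of Rpl5, at chr7:114706061-114706120 (minus strand), and Rpl28-ps1 at chr1:128038620-128038679 (plus strand).
Rps6-ps4: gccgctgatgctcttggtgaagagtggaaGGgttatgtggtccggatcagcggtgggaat
Gm15500: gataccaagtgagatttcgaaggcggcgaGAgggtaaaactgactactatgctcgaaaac
Rpl28-ps1: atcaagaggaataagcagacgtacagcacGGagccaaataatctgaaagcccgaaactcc

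In the members an intron lies at the marked place, of 82 bases in Rpl5 and 93 in Rpl28. The longest transcript annotated as a pseudogene of each of these 3 copies, of 750, 894 and 414 bases, was found whole inside a transcript of its member. For a read that falls within such a stretch, the letters do not tell the member from the copy. Over all annotated transcripts of Gm15500, 988 of 989 stretches of 31 bases were in Rpl5.

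These copies had more counts than their members. Rps6 averaged 2.06 ± 0.316 counts and Rps6-ps4 9.11 ± 0.826 (SD, n = 10 library sets), and the copy was higher in 92.6% of cells. Rpl28 averaged 4.50 ± 0.549 counts and Rpl28-ps1 14.2 ± 1.04, with the copy higher in 97.9% of cells. Rpl5 averaged 6.98 ± 0.803 counts and Gm15500 19.6 ± 1.30, with the copy higher in 99.5% of cells. For each of these 3 pairs the difference is many times the spread between library sets.

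A copy with a higher mean was found for 29 of the 80 protein-coding members with a mean of at least 1. Leaving out copies whose gene span touches another annotated gene, the number was 18. The 29 were 19 of 48 large subunit members and 10 of 32 small subunit members. Of the 30 members with a mean under 10 counts, 20 had a higher copy, against 9 of the 50 members with a mean of 10 or more. The split and the comparison use the same member mean, so a scarce member passes more easily whatever its copies. The 20 became 12 without copies whose span touches another annotated gene, and 9 when all stretches of a copy had to be in the member. Further pairs were Rps13, at 3.98 counts, with Rps13-ps1 at 11.8, Rpl15, at 3.25 counts, with Gm8420 at 8.14, and Rpl9, at 6.54 counts, with Rpl9-ps6 at 15.0. Rps27a had 6.69 counts and Gm8430 13.9, and Rpl24 had 5.92 counts and Gm12254 12.2. Rpl7a had 2.67 counts and its highest copy, Rpl7a-ps12, 13.6, but these may not come from a copy of Rpl7a. The gene span of Rpl7a-ps12 on chromosome X encloses Gm6472, a copy of Rps7, which had 13.3 counts, and both had equal counts in 71.6% of cells. Rows that lie within one another had like counts elsewhere too. Rpl36a-ps2, at 12.8 counts, lies in the span of Ddah1, at 13.9 counts, with a Pearson correlation of 0.95 over cells, and Rps3a3, at 16.8 counts, in that of Pde4d, at 18.3 counts, with one of 0.87. By contrast Rps6-ps4 and Rpl28-ps1, at 9.11 and 14.2 counts, lie in the spans of 2600014E21Rik and Zranb3, which had 1.74 and 1.54 counts. How reads in shared spans were counted is not stated in the labels. At high means the differences were small: Rpl37 had 19.7 counts and Rpl37rt 21.5. The annotated pseudogene Rps3a3, which is a member by the pattern and a copy of Rps3a1, had 16.8 ± 1.14 counts, and Rps3a1 13.7 ± 1.22. Of the 10 scarce members with no higher copy, Rpl23a had 3.11 counts and its highest copy Gm10335 1.78, but its 14 copies summed to 10.2 counts. Rpl17 had 3.80 counts, and its 26 copies summed to 18.9.

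**Figure D4:**
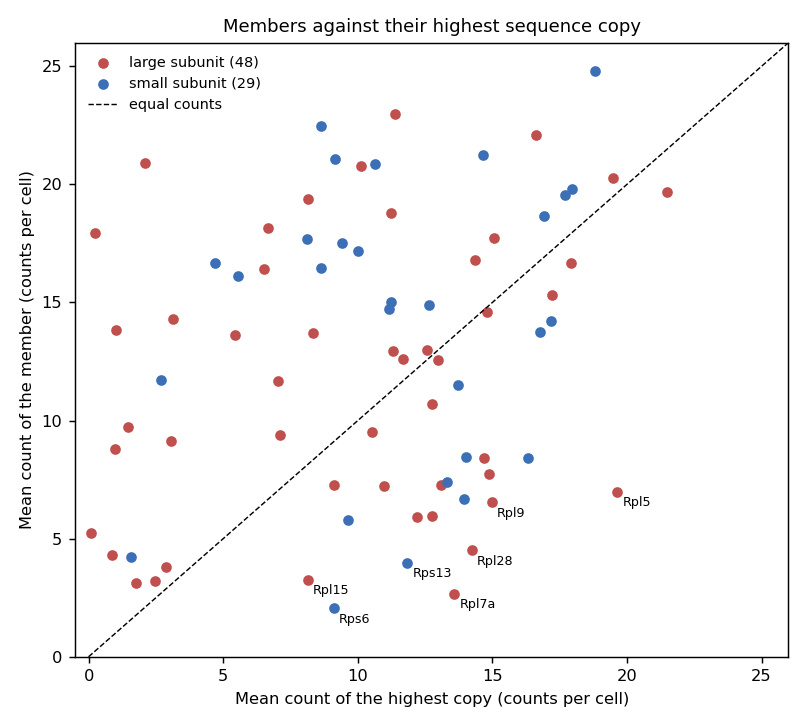
Mean count per cell of each member (vertical axis) against that of its copy with the highest mean (horizontal axis), for the members with a mean of at least 1 and a copy. Red points are large and blue points small subunit members, and the dashed line is equality; 29 members lie below the line, with Rpl7a, Rps6 and Rpl28 at 2.67, 2.06 and 4.50 counts farthest in ratio. The copy row of Rpl7a encloses Gm6472.

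Copies that share more sequence with their member had higher counts at the median, with a wide spread. Across 678 copies the mean count and the share of stretches found in the member had a Spearman correlation of 0.49, as a description. All stretches of 18 copies were found in their member, and the mean of these copies ran from 0.00526 to 16.3 counts, with a median of 8.86. Of these 18 copies, 9 were higher than their member. Among these pairs, Rps29 had 8.41 counts and Gm14303 16.3, and Rpl10a had 7.75 and Rpl10a-ps1 14.9. Rpl36a had 5.96 and Rpl36a-ps2, which lies in the span of Ddah1, 12.8. By contrast, Rpl13 had 13.6 counts and Gm12918 0.134, and Rpl15 had 3.25 counts and Rpl15-ps3 0.0605. Copies with 50% to under 100% of their stretches in the member had a median of 1.30 counts, and the 432 copies below 50% a median of 0.511 counts. Across 80 members, the mean count and the number of copies had a Spearman correlation of -0.44, and the mean count and the number of copies with a mean of at least 1 one of -0.06, both as descriptions across genes. The depth ratio had a median of 2.52 in the 29 members below a copy and of 1.63 in the 51 others. The 29 also had lower means, with a median of 7.40 counts against 16.7. As the depth ratio follows the mean closely, this contrast does not single out the copies. Over protein-coding members alone the ratio of large to small subunit was 0.803. It was 0.872 with the counts of copies that are not members added to each member, and 0.856 with those of all copies (SD 0.00609, n = 10 library sets). With copies added, members took a median of 8.14% of the counts of a cell, against 3.43% without. The part of the copies in the low counts of their members was not tested. Neither the tool that assigned reads to genes nor its treatment of reads with several matching places is stated in the labels. In addition, 38 members have an exon that overlaps an exon of another annotated gene, of which 19 have one on the other strand, and the labels do not say whether counting used strand.

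By the counts of their own rows, 4 of 8 paralog pairs were shared out broadly and 4 were nearly all from 1 gene. Paralogs are related genes. Most of those given here encode a second version of the same ribosomal protein, and several are known mainly from muscle or testis. Rpl7l1 and Rps4l are exceptions, described below. Shares are of the summed counts of a pair, without copies, with exact Clopper-Pearson intervals at 95% that cover counting error only. Rps27l, known as a target of p53, averaged 11.7 ± 0.855 counts and Rps27 11.5 ± 1.02, so that Rps27l made up 50.5% (49.5% to 51.6%; SD 1.74, n = 10 library sets). Rps27l was the higher in 190 cells and Rps27 in 40.0% of cells, and 38 cells had equal counts. The difference of the pair lay within the spread between library sets. A protein-coding copy of Rps27, Rps27rt, had 13.7 counts.

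Rpl22l1, known to take the place of Rpl22 in mice that lack it, averaged 9.40 ± 0.946 counts and Rpl22 14.3 ± 1.10. Its share was 39.6% (38.6% to 40.7%; SD 1.68), and it was the lower in each of the 10 library sets. Both genes had a count in 98.4% of cells, so that the paralogs were found together in the same cells. Per kilobase the difference was smaller, with 4.73 counts for Rpl22l1 and 4.92 for Rpl22. Rpl7l1, whose protein acts in the assembly of the large subunit, averaged 5.25 ± 0.742 counts and Rpl7 12.6 ± 1.20, a share of 29.4% (28.3% to 30.5%, SD 2.36). The 8 copies of Rpl7 summed to 30.3 counts and the 1 copy of Rpl7l1 had 0.0737, so the share of Rpl7l1 is lower with copies added. Rpl36al, which the symbol pattern misses, averaged 8.92 ± 1.07 counts and Rpl36a 5.96 ± 0.616, a share of 59.9% (58.6% to 61.2%; SD 2.38). Rpl36al was the higher in 74.2% of cells and Rpl36a in 17.6%. The copy Rpl36a-ps2, at 12.8 counts, exceeded both. It lies in the span of Ddah1, with a Pearson correlation of 0.95 over cells, so its counts may not come from a copy of Rpl36a.

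Rps4l, annotated as a processed pseudogene, averaged 1.65 counts and its X-linked relative Rps4x 20.9, a share of 7.33% (SD 2.14). It had a count in 54.5% of cells and reached 13 counts in a cell. Rpl3l, known from heart and skeletal muscle, had 71 counts in all, against 3205 of Rpl3, a share of 2.17% (1.70% to 2.73%). Its counts lay in 50 cells, and 1 cell had as many as 12. Rpl10l and Rpl39l, both known from testis, were near 0. Rpl10l had 9 counts in 9 cells, against 1640 counts of Rpl10, and Rpl39l had 7 counts in 6 cells, against 6236 counts of Rpl39. Without library set 3, which held most of the counts of Rpl39l, its share of 0.112% was 0.0358%. All 8 pairs together, with Rpl7l1 and Rps4l included, had 28.3% of their counts in the paralog given before its partner (SD 0.751). The plot of the paralog pairs shows each library set.

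**Figure D5:**
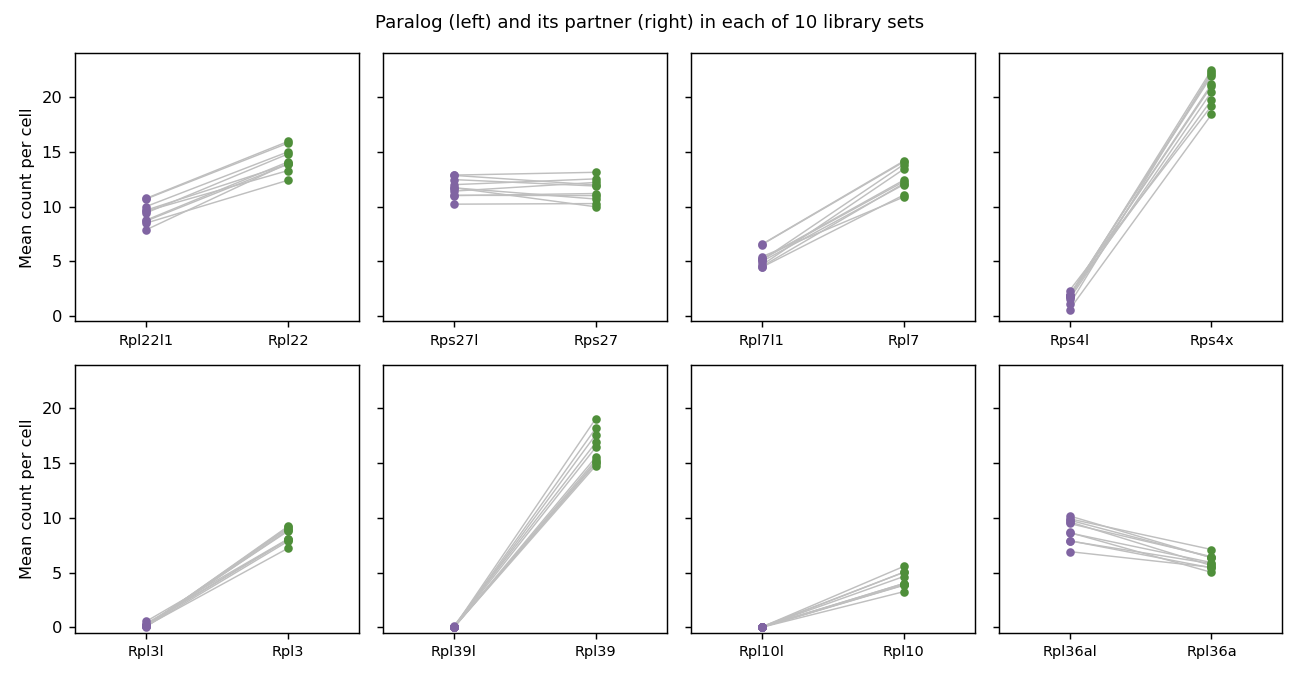
Mean count per cell of a paralog (left point) and of its partner (right point) in 8 pairs; each grey line is 1 of 10 library sets. Lines are level for Rps27l and Rps27 near 11.7 and 11.5 counts, slope down for Rpl36al and Rpl36a, and slope up for the other 6 pairs.

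Large and small subunit counts rose and fell together between cells. To set depth aside, cells were thinned at random to 19169 counts each, and the 38 shallower cells were left out. The summed counts of large and small subunit members then had a Spearman correlation of 0.88. The summed member counts had one of 0.80 with 15 other TOP mRNAs, which encode elongation factors and related proteins, and one of 0.57 with mitochondrial ribosomal proteins. With the number of genes detected in the thinned cell it was -0.83, and with the full total of the cell -0.45. With the S phase score it was 0.14 and with the G2 and M phase score 0.07. All points share the cells, and the thinned total makes any 2 large groups of genes trade against each other. Over 2628 pairs of members with a mean of at least 5 counts the median correlation was 0.26, and over pairs of a member and another gene of such a mean 0.11. Among pairs within the large subunit it was 0.24, within the small subunit 0.30 and between subunits 0.26. Cells with many member counts thus had fewer genes detected at the same depth, and the part of cell quality in this relation was not tested.

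Motifs known from ribosomal protein promoters were found in some of the members. RefSeq (GRCm38.p6) start sites were found for 63 of the 87 members, with 250 bases before and 50 after each start. The letters CTTTC or CTTTT, a short form of the TOP tract, stood within 20 bases of a start, on the sense strand, in 23 of 63 members (36.5%), against 10.9% of 27025 genes with such an entry. On the other strand 7.94% of members and 9.82% of all genes held them. CGGAAG, the core that ETS factors recognise, was found on either strand of the whole window in 66.7% of members, 56.5% of mitochondrial ribosomal protein genes and 18.8% of all genes. TATAAA stood in the 50 bases before the start of 1 of 63 members (1.59%), against 3.15% of all genes. The 5 starts printed next, each from 10 bases before the start to 20 bases after it, show the tract in capitals in members of very different counts and a start without it.
Rps6: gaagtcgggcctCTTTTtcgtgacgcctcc
Rpl7a: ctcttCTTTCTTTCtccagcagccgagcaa
Rplp2: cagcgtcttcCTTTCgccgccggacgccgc
Rps26: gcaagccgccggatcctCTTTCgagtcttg
Rpl41: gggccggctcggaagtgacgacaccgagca

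They lie at chr4:86857348-86857377 (minus strand), chr2:26910797-26910826 (plus strand), chr7:141447641-141447670 (plus strand), chr10:128626487-128626516 (minus strand) and chr10:128549149-128549178 (minus strand). Mean counts were 2.06 for Rps6, 2.67 for Rpl7a, 16.7 for Rplp2 and 21.2 for Rps26, and Rpl41, without the tract in the printed bases, had the highest mean count of the large subunit. The 22 members with the letters and a mean of at least 1 had a median of 12.8 counts, and the 38 without them 14.8 counts. A match is a match of letters in this window only.

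Member shares differed little between cells with low and high cell cycle scores. The score sums S phase and G2 and M phase marker levels after thinning, and cells were ranked by it into 3 equal bands of cells, which are ranges of a score and not cell types. At the thinned depth the median member share was 3.29%, 3.47% and 3.44% from the lowest to the highest band. The difference of high minus low was 0.151 percentage points and its SD over library sets 0.252, with 8 of 10 sets above 0. Of 83 members with a thinned mean of at least 1, 64 were higher in the highest than in the lowest band, or 77.1%, where 70.1% of all genes were. The median log2 ratio was 0.13 over members, 0.18 over large and 0.03 over small subunit members, and 0.16 over all 5749 genes. Mitochondrial ribosomal proteins had a median of 0.31, with 72 of 75 genes higher. The largest member ratios were those of Rpl23a at 0.48, Rpl7a at 0.47 and Rps13 at 0.45, each of which had a mean under 3 counts after thinning, and their SDs over sets were 0.43, 0.57 and 0.37. The lowest was that of Rps19 at -0.15 (SD 0.16). Median full depth moved with the score, from 29809 counts in the lowest band over 33316 to 36996 in the highest, and its part in these ratios was not tested.

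The title of the series names Mex3a, an RNA-binding protein, as a mark of slowly dividing stem cells. At full depth, members took a mean of 3.49% of counts in the 31 cells with a Mex3a count after thinning and of 3.38% in the cells without. The difference, 0.113 percentage points, had the other sign within library sets: over the 6 sets with at least 3 cells with Mex3a its mean was -0.083 (SD 0.197), with 2 sets above 0. Of 83 members, 59 had a higher thinned mean in cells with Mex3a, where 52.4% of all genes did, and the median log2 ratio was 0.07 over members and 0.01 over all genes. With at least 2 counts of Mex3a as the gate, the 10 cells with Mex3a had a mean share of 3.26% and those without 3.39%. A difference in member share between these cells was not detectable at this number of cells.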

How the data were processed

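Messenger RNA of 400 single Lgr5-high cells was measured with cDNA made on a microfluidic chip, per the labels' protocols. The deposited table holds whole-number counts per gene and cell, not normalized. The submitters' processing notes name the build GRCm38.p4. How reads were aligned and counted, and whether by strand or by molecular identifier, is not given in the sources used here. Symbols, exons and transcripts came from GENCODE M21 (GRCm38), which gave a symbol for 33219 of 33496 rows. Cells with at least 10000 counts were kept (380 of 400), and doublets were not removed. All values are means, ratios and shares of these counts, computed with numpy 2.4.6 and pandas 2.3.3, with correlations from scipy 1.17.1. Depth bands were 4 equal groups of kept cells by the counts of genes outside the members. Thinning drew 19169 counts per cell without replacement, the 10th percentile of kept cells. Log2 ratios between bands or gates of thinned cells used a pseudocount of 0.1 counts. With 1 sample, no test was run, and intervals cover counting error only. The functions were tested on simulated data. The genes described singly were the highest and lowest of each subunit and of each measure, the members by role, the paralogs and the copies. The copies, the overlaps of exons and the promoter letters were added after the values of the members were seen. The members and lists were chosen with earlier results of these data known. Some results for single genes are not reported here.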

Additional observations from a re-analysis of the deposited data

How the results depend on the processing

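Each result was recomputed under other choices of cells, depth, scale and members, and moved where it changed by more than 1 SD over library sets. The number of members with a higher copy has no such SD and was judged by a fixed fold change instead. The median member share of 3.43% became 4.14% when counts were mapped through an occupancy formula with 37 places and 8.14% with copies added. The ratio of large to small subunit of 0.823 became 0.802 on thinned counts, over 49 large and 34 small subunit members. Rps4l fell below a mean of 1 there and was left out, so this is not a change of depth alone. The ratio became 0.901 per kilobase, 0.776 over all members with any count, 0.724 as a ratio of medians and 0.785 on the occupancy scale. It was 0.803 over protein-coding members and 0.872 with copies added, and it stayed below 1 under each of these. The depth ratio of 1.61 became 1.85 with all 400 cells and 1.4 in cells with at least 20000 counts. Each is over the members with a mean of at least 10 in those cells. The paralog share of 28.3% became 26.2% on the occupancy scale. The Mex3a difference of 0.113 points became -0.128 with a gate of 2 counts. The 29 members with a higher copy became 9 when all stretches of a copy had to be in the member and 18 without copies that share their span with another annotated gene. The variance to mean ratio of 1.29 was 0.922 both at 20000 counts or more and on thinned counts, on the other side of 1. Leaving out each library set in turn gave shares of 3.41% to 3.44%, ratios of large to small of 0.821 to 0.824, variance to mean ratios of 1.21 to 1.34, depth ratios of 1.58 to 1.65, paralog shares of 28.2% to 28.4%, differences by cell cycle score of 0.0632 to 0.158 points, Mex3a differences of 0.0516 to 0.166 points and 29 members with a higher copy. The other settings, all but 19, moved no value beyond these limits. The settings that use copies, add Fau, Rpl36al and Rack1, or use protein-coding members only or a thinned share for Mex3a were chosen after seeing the data. No paired analysis was possible because there is 1 group. The flattening limits what can be said of abundant members: a ratio between 2 of them is compressed, and thinning does not undo it.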
